A study of Mus musculus with 21 samples.

Results

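The genes described here are 49 mouse genes of the type I interferon response, chosen by symbol from a list of known interferon-induced genes and regulators and followed across every treatment group of a macrophage study. All 49 were among the 34573 genes of the count table. The filter on low counts kept 6812 genes, and 47 of the 49 were among them. Mx2, an antiviral GTPase, reached at most 21 reads in a library and Gbp5, a guanylate-binding protein, at most 7, so neither was tested. The cells were macrophages grown for 6 days from the bone marrow of C57bl/6 mice aged 12 weeks, with L929-cell medium as the source of M-CSF. They received dimethyl malonate (DMM), succinate or nothing for 3 h, and then bacterial lipopolysaccharide (LPS) or no LPS, for 4 or 48 h, and full-length cDNA was sequenced by a variant of the SmartSeq2 protocol. The groups were DMM then LPS for 4 h (2 libraries), succinate then LPS for 4 h (1), LPS alone for 4 h (2), DMM then LPS for 48 h (2), succinate then LPS for 48 h (1), LPS alone for 48 h (2), DMM without LPS (4), succinate without LPS (4) and untreated control cells (3). Every group shares the strain, the culture and the L929 medium, which is an undefined mixture. The concentrations of DMM, succinate and LPS, and whether libraries of a group came from separate mice or cultures, were not stated in the labels. P-values therefore measure the spread between these libraries, which may be technical. For the 11 libraries without LPS, the time of harvest could not be read from the count table, so 4 h and 48 h controls are described together.

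Type I interferons are secreted when cells sense microbial products. In macrophages, LPS binds TLR4, whose TRIF arm activates the transcription factor IRF3 and the interferon beta gene. The secreted interferon binds IFNAR, and the JAK kinases then activate the ISGF3 complex, which includes STAT2 and IRF9 and binds interferon-stimulated response elements in the promoters of antiviral genes. Succinate is the substrate of succinate dehydrogenase, the mitochondrial enzyme also known as complex II. Malonate is a shorter dicarboxylate that competes with succinate for this enzyme, and DMM is its dimethyl ester, which enters cells.

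Libraries held 662186 to 1546867 counts, and the 49 genes took 0.22% to 0.42% of them without LPS and 0.49% to 1.16% with LPS. The library labelled LPS 48 h replicate 1 went against its label. In it, Il1b, a cytokine gene induced by LPS, was at 0.895 CPM (counts scaled to library size by TMM) and Saa3, an acute-phase gene, at 34.0 CPM. All 9 other LPS libraries had at least 52967 CPM of Saa3, and the 11 libraries without LPS at most 109 CPM. It and DMM replicate 2 were the closest pair of all libraries (chi-square of 1.19 per degree of freedom, against 2.77 for the next pair). It was kept out of the model, so LPS alone for 48 h rests on 1 library. Counts with it as labelled are given beside the results that use that group. Beside other results such counts are given too. There the setting adds no library to the compared groups and acts through the filter, scaling and spread that all libraries share. Macrophage markers summed to 51310 to 148100 CPM in all groups, mostly Lyz2. Markers of fibroblasts and of dendritic cells summed to at most 39.3 and 12.7 CPM, and those of plasmacytoid dendritic cells, B cells, T and NK cells, and mast cells to at most 4.75, 2.35, 1.62 and 1.08 CPM. In bulk RNA, fewer cells of a type and less RNA per cell cannot be told apart. A gene is called changed at an adjusted p under 0.05 in edgeR's quasi-likelihood test, with Benjamini-Hochberg adjustment over 6812 genes, in 1 model of 20 libraries. Groups with 1 library enter this model under the assumption that they vary like the other groups. Differences are given as log2 fold changes with the SE of the model, except where a ratio of counts is named.

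The interferon-stimulated response element is known from the promoters of many interferon-induced genes, and 5 promoters that hold it are shown for genes whose values are given below. Of the 49 genes, 38 had an entry in a table of RefSeq promoters (build GRCm38.p6), each holding 250 bases before and 50 after the start. The core of the element was searched as GAAANNGAAA on both strands. It occurred in 24 of the 38 promoters (63.2%) and in 943 of 27025 promoters of all genes (3.49%). A gamma-activated site core, searched as TTCNNNGAA, occurred in 10 of 38 (26.3%), against 8.47% of all promoters. The sequences below run 5′ to 3′ on the gene's own strand, with the element core in capitals on either strand. Isg15 holds 3 overlapping cores, Ifit3 and Bst2 hold 2 each, and Rsad2 and Trim30a hold 1 each.
Rsad2 (chr12:26456538-26456597, minus strand): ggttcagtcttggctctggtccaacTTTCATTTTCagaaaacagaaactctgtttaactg
Isg15 (chr4:156200850-156200921, minus strand): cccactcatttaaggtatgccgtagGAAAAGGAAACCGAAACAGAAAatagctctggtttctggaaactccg
Ifit3 (chr19:34583348-34583441, plus strand): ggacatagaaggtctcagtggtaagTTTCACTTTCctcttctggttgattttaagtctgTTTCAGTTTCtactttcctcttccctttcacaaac
Trim30a (chr7:104465195-104465254, minus strand): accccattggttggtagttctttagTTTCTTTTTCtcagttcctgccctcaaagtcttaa
Bst2 (chr8:71537562-71537627, minus strand): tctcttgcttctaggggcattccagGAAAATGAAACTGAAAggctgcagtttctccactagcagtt
A match is a description of letters in the window and no proof of a working site. The windows of Irf7, Ifit2 and Cmpk2 held no GAAANNGAAA, which says only that these letters are not in those windows.

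LPS alone raised most of the 47 genes. After 4 h, 36 passed the test against control cells, 35 higher and 1 lower, where 27.9% of all 6812 genes passed. The median log2 fold change of the 47 genes was 2.09, against -0.07 over all genes. After 48 h, 40 passed, all higher, against a background of 20.8%, with a median of 2.44 against -0.09 over all genes. With the library labelled LPS 48 h replicate 1 added to its group, 23 passed at 48 h. Ifi44, Cxcl10, Mx1, Gbp2, Oasl1, Gbp3, Gbp7, Slfn1, Slfn4 and Ifi205 stayed below the 9.64 CPM of the filter in every library without LPS. Isg15 and Igtp, at most 10.2 and 10.43 CPM without LPS, reached it in fewer such libraries than the 2 that the filter asks. All of these genes were tested only because of LPS libraries, so they could hardly pass as lower against cells without LPS. Counts of genes higher after LPS, here and after DMM or succinate, include such genes. Per kilobase of exon, the highest members after 4 h of LPS were Ifi27l2a at 1234 CPM per kb, Bst2 at 1108 and Irf7 at 769.9.

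**Figure D1:**
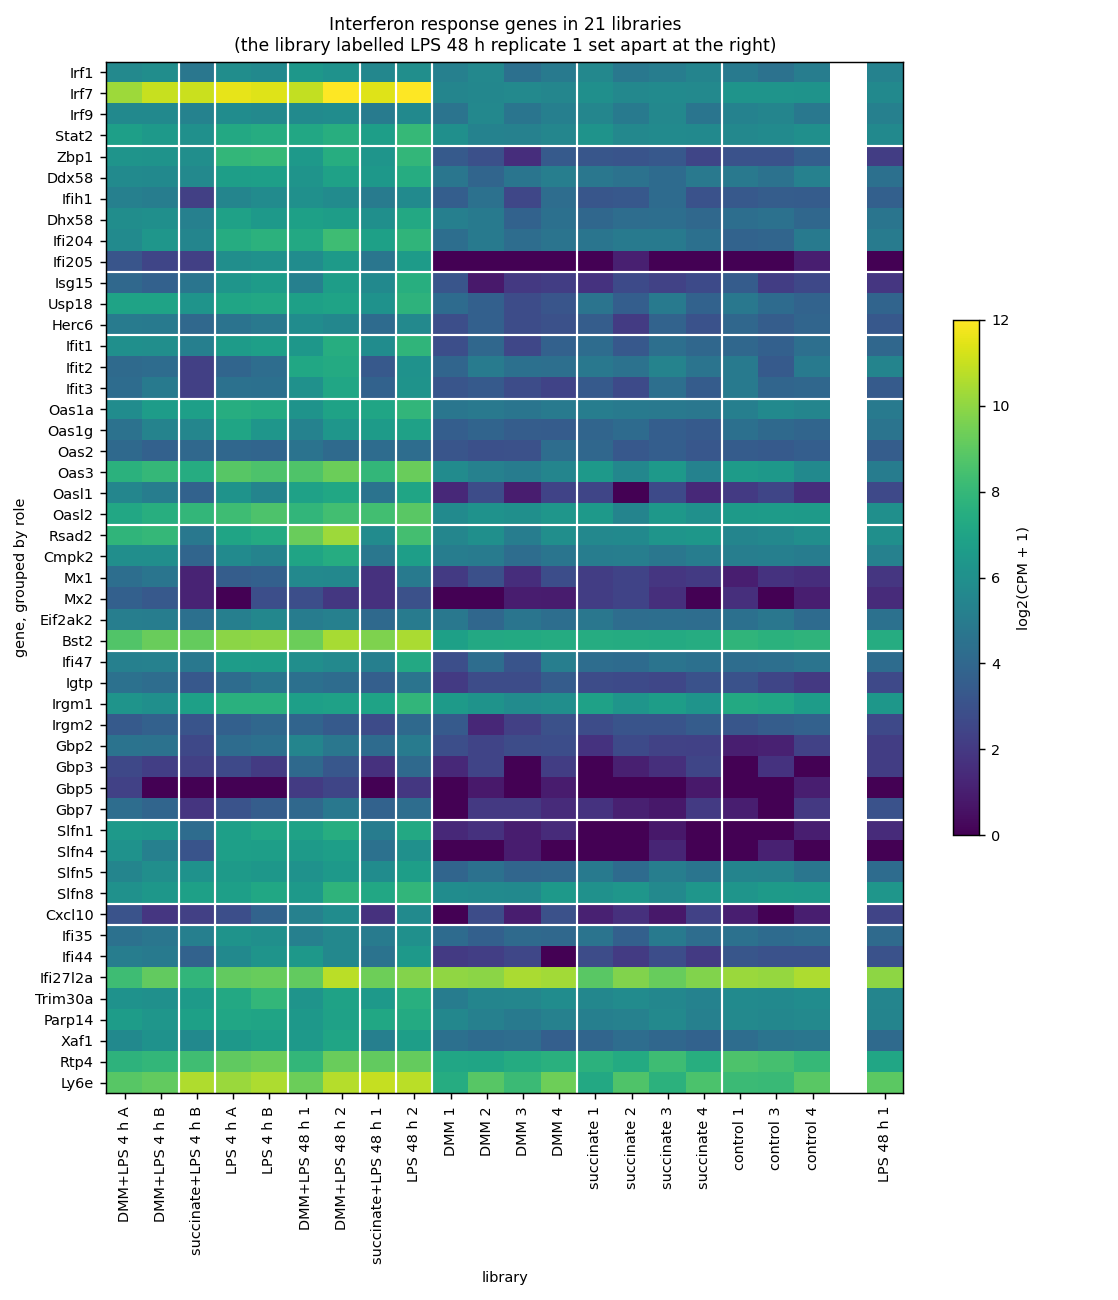
Levels of all 49 genes as log2(CPM + 1), 1 column per library and 1 row per gene, with white lines between groups and roles. Irf7 and Bst2 are bright in all 9 LPS libraries of the model, and the library labelled LPS 48 h replicate 1, at the far right, has the dark colours of the libraries without LPS.

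**Figure D2:**
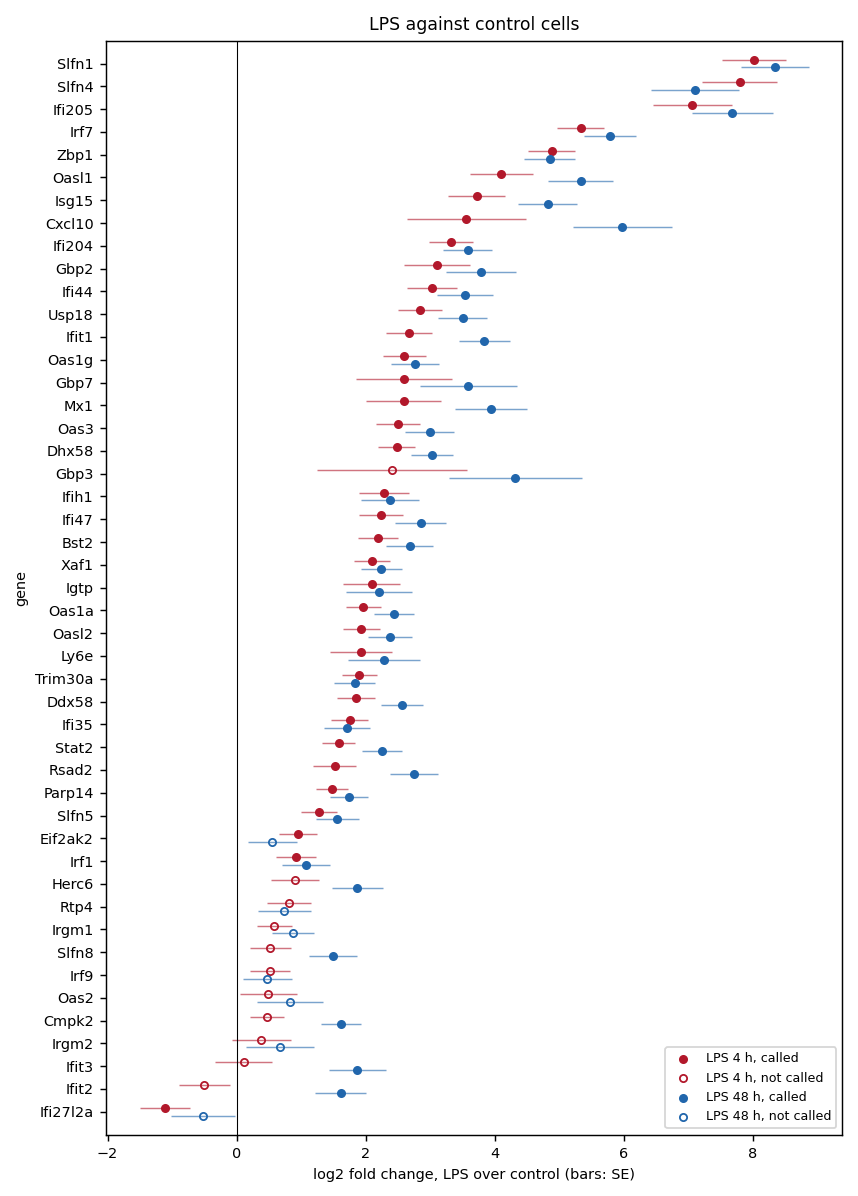
Log2 fold change of each of the 47 tested genes after 4 h (red) and 48 h (blue) of LPS over control cells, with SE bars; filled points passed the test. Slfn1, Slfn4 and Ifi205 lead the plot, but control cells held 1 read of each, so their fitted values depend on the prior count. Ifi27l2a is the only gene that passed below 0.

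The transcription factors differed in their response. Irf7 codes for the factor that amplifies interferon production. At 4 h, Irf7 measured 1223 and 2055 CPM after DMM and LPS, 2121 CPM after succinate and LPS, and 3046 and 2769 CPM after LPS alone. At 48 h, Irf7 measured 1916 and 4302 CPM after DMM and LPS, 2757 CPM after succinate and LPS, and 4009 CPM after LPS alone. Without LPS, Irf7 measured 42.8, 46.2, 48.8 and 45.2 CPM in DMM cells, 61.1, 46.9, 52.8 and 48.6 CPM in succinate cells and 73.5, 72.7 and 70.6 CPM in control cells. The lowest LPS library of the model stood at 1223 CPM and the highest of the others at 73.5 CPM, and the log2 fold change of LPS over control was 5.33 ± 0.37 at 4 h (SE, adjusted p = 8.12e-13) and 5.79 ± 0.40 at 48 h (adjusted p = 1.23e-12). Stat2 codes for a subunit of ISGF3. At 4 h, Stat2 measured 109.6 and 85.4 CPM after DMM and LPS, 64.4 CPM after succinate and LPS, and 153 and 173 CPM after LPS alone. At 48 h, Stat2 measured 143 and 182 CPM after DMM and LPS, 106 CPM after succinate and LPS, and 259.6 CPM after LPS alone. Without LPS, Stat2 measured 61.8, 38.8, 38.1 and 45.2 CPM in DMM cells, 71.7, 46.9, 52.8 and 50.9 CPM in succinate cells and 48.0, 52.8 and 62.6 CPM in control cells. LPS raised it by 1.58 ± 0.26 and 2.25 ± 0.31 on the log2 scale at 4 and 48 h, with no overlap between LPS and control libraries. Irf9 codes for the DNA-binding subunit of ISGF3. At 4 h, Irf9 measured 50.02 and 50.1 CPM after DMM and LPS, 38.6 CPM after succinate and LPS, and 55.5 and 48.4 CPM after LPS alone. At 48 h, Irf9 measured 52.7 and 55.4 CPM after DMM and LPS, 30.7 CPM after succinate and LPS, and 50.2 CPM after LPS alone. Without LPS, Irf9 measured 23.8, 47.7, 24.4 and 34.8 CPM in DMM cells, 44.7, 28.4, 47.9 and 24.3 CPM in succinate cells and 38.8, 43.4 and 27.2 CPM in control cells. Irf9 missed the threshold at both times, with 95% intervals of -0.12 to 1.15 and -0.32 to 1.25. Irf1 codes for an interferon-induced activator. At 4 h, Irf1 measured 49.5 and 58.5 CPM after DMM and LPS, 25.7 CPM after succinate and LPS, and 57.6 and 50.6 CPM after LPS alone. At 48 h, Irf1 measured 81.8 and 67.6 CPM after DMM and LPS, 46.6 CPM after succinate and LPS, and 59.8 CPM after LPS alone. Without LPS, Irf1 measured 36.4, 47.7, 20.5 and 28.7 CPM in DMM cells, 47.0, 27.3, 32.6 and 42.3 CPM in succinate cells and 29.6, 22.3 and 33.3 CPM in control cells. LPS raised Irf1 by 0.92 ± 0.31 at 4 h and 1.07 ± 0.37 at 48 h. Exons of Irf1, Irf7 and Irf9 overlap those of a neighbouring gene, and without a stated strand setting part of their counts could belong to the neighbour.

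Among the 6 sensors of nucleic acids, all 6 rose at 4 h and all 6 at 48 h. Zbp1 codes for a sensor of left-handed nucleic acid. At 4 h, Zbp1 measured 72.5 and 70.6 CPM after DMM and LPS, 60.5 CPM after succinate and LPS, and 246 and 258 CPM after LPS alone. At 48 h, Zbp1 measured 85.1 and 177 CPM after DMM and LPS, 75.0 CPM after succinate and LPS, and 247 CPM after LPS alone. Without LPS, Zbp1 measured 9.50, 6.71, 1.95 and 9.57 CPM in DMM cells, 8.23, 7.64, 9.03 and 4.70 CPM in succinate cells and 7.14, 7.04 and 11.1 CPM in control cells. Every LPS library of the model lay above every library without LPS, and the log2 fold change of LPS over control was 4.88 ± 0.36 at 4 h and 4.85 ± 0.39 at 48 h. Ddx58 codes for the RNA helicase RIG-I. At 4 h, Ddx58 measured 52.8 and 50.1 CPM after DMM and LPS, 48.9 CPM after succinate and LPS, and 103 and 108 CPM after LPS alone. At 48 h, Ddx58 measured 73.7 and 117 CPM after DMM and LPS, 84.1 CPM after succinate and LPS, and 173 CPM after LPS alone. Without LPS, Ddx58 measured 25.3, 14.2, 24.4 and 33.9 CPM in DMM cells, 25.9, 21.8, 17.4 and 27.4 CPM in succinate cells and 27.6, 22.3 and 37.3 CPM in control cells. LPS raised Ddx58 by 1.85 ± 0.30 and 2.56 ± 0.33, and the groups did not overlap. Ifi204 and Ifi205 belong to the HIN-200 family of DNA-binding proteins. Ifi205 had 1 read over the 3 control libraries, so its rise at 4 h is a ratio of counts, 177 (95% counting interval 31.1 to 7050). These 2 genes have close relatives, and reads may have been split between copies.

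In the ISG15 system, a ubiquitin-like modifier and its enzymes, 2 of 3 genes rose at 4 h and 3 of 3 at 48 h. Isg15 codes for the modifier itself. At 4 h, Isg15 measured 15.7 and 12.1 CPM after DMM and LPS, 24.5 CPM after succinate and LPS, and 75.7 and 94.7 CPM after LPS alone. At 48 h, Isg15 measured 36.5 and 102 CPM after DMM and LPS, 50.01 CPM after succinate and LPS, and 182 CPM after LPS alone. Without LPS, Isg15 measured 7.92, 0.746, 2.93 and 3.48 CPM in DMM cells, 2.35, 5.46, 4.17 and 5.48 CPM in succinate cells and 10.2, 3.52 and 5.04 CPM in control cells. LPS alone stood above every other 4 h group, and the rise over control was 3.72 ± 0.44 at 4 h and 4.82 ± 0.46 at 48 h. Usp18 codes for the protease that removes ISG15 and restrains IFNAR signalling. At 4 h, Usp18 measured 125 and 124 CPM after DMM and LPS, 73.4 CPM after succinate and LPS, and 131 and 144 CPM after LPS alone. At 48 h, Usp18 measured 113 and 125 CPM after DMM and LPS, 68.2 CPM after succinate and LPS, and 217 CPM after LPS alone. Without LPS, Usp18 measured 17.4, 11.9, 5.85 and 7.83 CPM in DMM cells, 23.5, 10.9, 29.9 and 12.5 CPM in succinate cells and 26.5, 17.6 and 13.1 CPM in control cells. Usp18 rose by 2.84 ± 0.34 and 3.50 ± 0.38. Herc6, the ISG15 ligase of the mouse, passed at 48 h only, with 0.90 ± 0.37 at 4 h (adjusted p = 0.0709) and 1.87 ± 0.40 at 48 h (adjusted p = 7.50e-04); the difference between times did not pass (0.96 ± 0.41 SE, adjusted p = 0.986).

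The IFIT genes code for proteins that bind foreign RNA. At 4 h, Ifit1 measured 62.4 and 60.4 CPM after DMM and LPS, 34.8 CPM after succinate and LPS, and 93.9 and 109 CPM after LPS alone. At 48 h, Ifit1 measured 79.4 and 178 CPM after DMM and LPS, 56.8 CPM after succinate and LPS, and 229 CPM after LPS alone. Without LPS, Ifit1 measured 6.34, 14.9, 4.88 and 12.2 CPM in DMM cells, 17.6, 8.73, 20.1 and 14.9 CPM in succinate cells and 15.3, 11.7 and 20.2 CPM in control cells. Ifit1 rose by 2.67 ± 0.35 at 4 h and 3.84 ± 0.39 at 48 h. At 4 h, Ifit2 measured 16.9 and 17.6 CPM after DMM and LPS, 3.86 CPM after succinate and LPS, and 13.9 and 18.3 CPM after LPS alone. At 48 h, Ifit2 measured 141 and 159.7 CPM after DMM and LPS, 9.09 CPM after succinate and LPS, and 69.5 CPM after LPS alone. Without LPS, Ifit2 measured 14.3, 30.6, 20.5 and 20 CPM in DMM cells, 27.0, 21.8, 40.3 and 23.5 CPM in succinate cells and 28.6, 9.38 and 29.3 CPM in control cells. After 4 h of LPS alone, Ifit2 lay within the range of control cells (-0.50 ± 0.40 SE, adjusted p = 0.4). At 48 h the library of LPS alone lay above all controls (1.61 ± 0.39 SE, adjusted p = 0.00282). At 4 h, Ifit3 measured 17.98 and 28.8 CPM after DMM and LPS, 3.86 CPM after succinate and LPS, and 21.3 and 20.4 CPM after LPS alone. At 48 h, Ifit3 measured 67.2 and 136 CPM after DMM and LPS, 12.5 CPM after succinate and LPS, and 71.4 CPM after LPS alone. Without LPS, Ifit3 measured 7.92, 9.69, 5.85 and 4.35 CPM in DMM cells, 9.40, 5.46, 20.1 and 10.2 CPM in succinate cells and 28.6, 14.1 and 15.1 CPM in control cells. Ifit3 likewise overlapped the controls at 4 h (0.11 ± 0.44 SE, adjusted p = 0.895) and rose at 48 h (1.87 ± 0.44 SE, adjusted p = 0.00207). Ifit3 has a near-identical copy, so its counts are uncertain.

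In the OAS family, whose enzymes make the messenger that activates RNase L, 5 of 6 genes rose at each time. Oasl1 codes for a family member without that enzyme activity, known in the mouse to restrain Irf7 translation. At 4 h, Oasl1 measured 45.0 and 33.4 CPM after DMM and LPS, 12.9 CPM after succinate and LPS, and 71.5 and 42.0 CPM after LPS alone. At 48 h, Oasl1 measured 114 and 141 CPM after DMM and LPS, 22.7 CPM after succinate and LPS, and 133 CPM after LPS alone. Without LPS, Oasl1 measured 1.58, 5.97, 0.976 and 4.35 CPM in DMM cells, 4.70, 0, 5.56 and 1.57 CPM in succinate cells and 3.06, 4.69 and 2.02 CPM in control cells. Oasl1 rose by 4.10 ± 0.49 at 4 h and 5.33 ± 0.50 at 48 h. Oas3 and Oasl2 rose by 2.50 ± 0.34 and 1.93 ± 0.29 at 4 h, and Oas2 did not pass (0.49 ± 0.44 SE, adjusted p = 0.456).

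Of the other antiviral effectors, 4 of 5 tested genes rose at each time. Rsad2 codes for viperin, which makes a chain-terminating nucleotide. At 4 h, Rsad2 measured 232 and 251 CPM after DMM and LPS, 27.0 CPM after succinate and LPS, and 129 and 158 CPM after LPS alone. At 48 h, Rsad2 measured 605 and 1222 CPM after DMM and LPS, 54.6 CPM after succinate and LPS, and 339 CPM after LPS alone. Without LPS, Rsad2 measured 44.4, 61.9, 33.2 and 60.0 CPM in DMM cells, 48.2, 51.3, 75.0 and 81.4 CPM in succinate cells and 42.9, 46.9 and 60.5 CPM in control cells. After LPS alone, Rsad2 rose by 1.52 ± 0.33 at 4 h and 2.75 ± 0.37 at 48 h. The 4 libraries given DMM and LPS lay above LPS alone at the same time, and the 2 given succinate and LPS lay within the range of the libraries without LPS or below it. Mx1 codes for an antiviral GTPase, and C57BL/6 mice carry a deletion in this gene. At 4 h, Mx1 measured 19.1 and 24.1 CPM after DMM and LPS, 1.29 CPM after succinate and LPS, and 10.7 and 11.8 CPM after LPS alone. At 48 h, Mx1 measured 48.6 and 47.0 CPM after DMM and LPS, 2.27 CPM after succinate and LPS, and 29.0 CPM after LPS alone. Without LPS, Mx1 measured 3.17, 6.71, 1.95 and 6.09 CPM in DMM cells, 3.53, 4.36, 2.78 and 3.13 CPM in succinate cells and 1.02, 2.35 and 2.02 CPM in control cells. Mx1 rose by 2.59 ± 0.58 and 3.94 ± 0.56 after LPS alone, with the libraries of LPS alone above all controls. Bst2 codes for tetherin, which holds budding virions at the membrane. At 4 h, Bst2 measured 421 and 613 CPM after DMM and LPS, 575 CPM after succinate and LPS, and 979 and 1022 CPM after LPS alone. At 48 h, Bst2 measured 623 and 1356 CPM after DMM and LPS, 808 CPM after succinate and LPS, and 1406 CPM after LPS alone. Without LPS, Bst2 measured 113, 149, 155 and 167 CPM in DMM cells, 174, 164, 159 and 172 CPM in succinate cells and 229.6, 204 and 222 CPM in control cells. Bst2 rose by 2.19 ± 0.31 and 2.68 ± 0.36, and all LPS libraries of the model lay above all others.

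**Figure D3:**
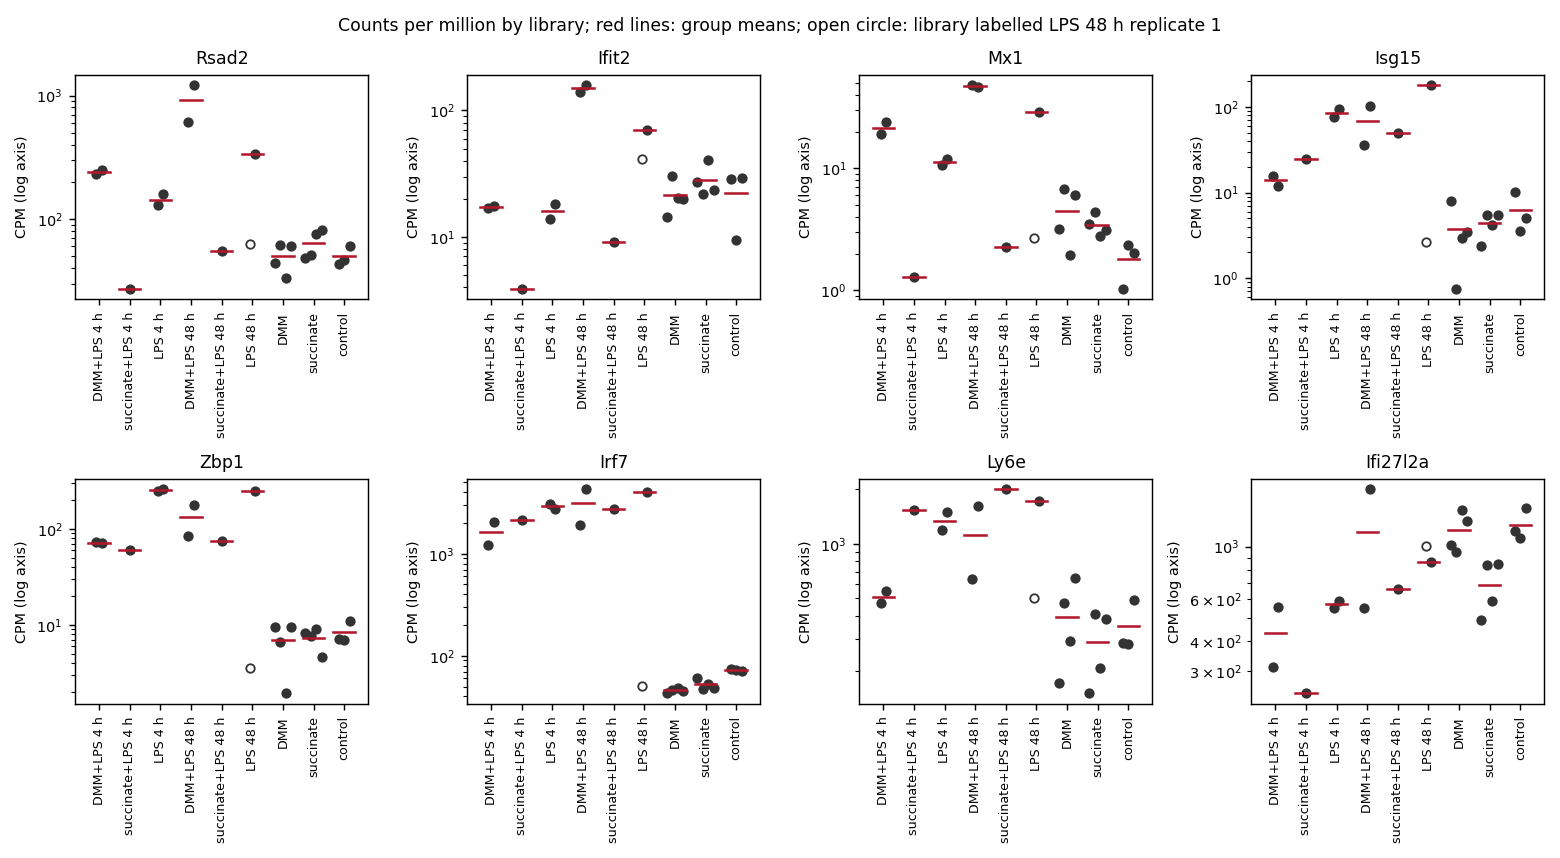
CPM on a log axis for 8 genes in every library, with group means as red lines, pretreated groups left of LPS alone at each time, and control cells last. Among the LPS groups of each time, Rsad2 and Mx1 are lowest after succinate and highest after DMM, and Ifit2 is lowest after succinate. Isg15 and Zbp1 are lower after either compound than after LPS alone at 4 h. Irf7 is at 1223 CPM or more in each LPS library of the model, Ly6e is lower after DMM than after LPS alone at 4 h, and Ifi27l2a is lower after 4 h of LPS than in control cells.

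Interferon-inducible GTPases, which attack the vacuoles of intracellular microbes, counted 4 higher of 7 tested at 4 h and 5 at 48 h. Gbp2 codes for a guanylate-binding protein. At 4 h, Gbp2 measured 22.5 and 22.3 CPM after DMM and LPS, 5.15 CPM after succinate and LPS, and 18.1 and 20.4 CPM after LPS alone. At 48 h, Gbp2 measured 42.9 and 26.3 CPM after DMM and LPS, 17.1 CPM after succinate and LPS, and 30.9 CPM after LPS alone. Without LPS, Gbp2 measured 6.34, 4.47, 5.85 and 6.09 CPM in DMM cells, 2.35, 5.46, 4.17 and 3.92 CPM in succinate cells and 1.02, 1.17 and 4.04 CPM in control cells. Gbp2 rose by 3.11 ± 0.51 and 3.79 ± 0.54. Irgm1 codes for a regulator of this family. At 4 h, Irgm1 measured 73.1 and 61.3 CPM after DMM and LPS, 113 CPM after succinate and LPS, and 194 and 193 CPM after LPS alone. At 48 h, Irgm1 measured 107 and 117 CPM after DMM and LPS, 125 CPM after succinate and LPS, and 237 CPM after LPS alone. Without LPS, Irgm1 measured 91.9, 71.6, 54.6 and 60.9 CPM in DMM cells, 115, 75.3, 102 and 73.6 CPM in succinate cells and 154, 137 and 97.9 CPM in control cells. Irgm1 did not pass at either time (0.58 ± 0.27 SE, adjusted p = 0.119 at 4 h and 0.87 ± 0.33 SE, adjusted p = 0.0599 at 48 h), although each library of LPS alone lay above all controls. Among the Schlafen genes, a family of regulators of immune cell growth and translation, 3 of 4 rose at 4 h and 4 of 4 at 48 h. At 4 h, Slfn4 measured 68.6 and 36.2 CPM after DMM and LPS, 7.72 CPM after succinate and LPS, and 108 and 103 CPM after LPS alone. At 48 h, Slfn4 measured 91.5 and 104 CPM after DMM and LPS, 21.6 CPM after succinate and LPS, and 64.7 CPM after LPS alone. Without LPS, Slfn4 measured 0, 0, 0.976 and 0 CPM in DMM cells, 0, 0, 1.39 and 0 CPM in succinate cells and 0, 1.17 and 0 CPM in control cells. Slfn4 was close to 0 without LPS, and LPS over control at 4 h was a ratio of counts of 298 (95% counting interval 52.9 to 11800). Slfn1 gave 345 (95% counting interval 61.3 to 13700). Cxcl10 codes for a chemokine that draws activated T cells. At 4 h, Cxcl10 measured 7.31 and 2.79 CPM after DMM and LPS, 3.86 CPM after succinate and LPS, and 6.40 and 12.9 CPM after LPS alone. At 48 h, Cxcl10 measured 37.3 and 56.4 CPM after DMM and LPS, 2.27 CPM after succinate and LPS, and 52.1 CPM after LPS alone. Without LPS, Cxcl10 measured 0, 5.97, 0.976 and 6.96 CPM in DMM cells, 1.18, 2.18, 0.695 and 3.92 CPM in succinate cells and 1.02, 0 and 1.01 CPM in control cells. Cxcl10 rose at both times, by a ratio of counts of 13.6 (95% counting interval 3.26 to 121) at 4 h and 73.6 (95% counting interval 19.4 to 623) at 48 h. These intervals cover counting error only.

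Of the 8 remaining genes, 6 rose at 4 h and 6 at 48 h. Ly6e codes for a membrane protein that blocks the fusion of coronaviruses. At 4 h, Ly6e measured 471 and 547 CPM after DMM and LPS, 1527 CPM after succinate and LPS, and 1186 and 1491 CPM after LPS alone. At 48 h, Ly6e measured 639.9 and 1604 CPM after DMM and LPS, 1997 CPM after succinate and LPS, and 1718 CPM after LPS alone. Without LPS, Ly6e measured 173, 474, 293 and 649.6 CPM in DMM cells, 150.4, 414, 206 and 384 CPM in succinate cells and 285, 283 and 491 CPM in control cells. Ly6e rose by 1.92 ± 0.48 and 2.28 ± 0.56 after LPS alone. After DMM and 4 h of LPS, both libraries lay within the range of the libraries without LPS. Ifi27l2a was the only gene of the list that fell after LPS alone (-1.11 ± 0.39 SE, adjusted p = 0.0334 at 4 h). It had 554 and 589.5 CPM after LPS for 4 h, against 1159, 1085 and 1457 CPM in control cells. At 48 h its difference was -0.52 ± 0.50 SE, adjusted p = 0.514.

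LPS also raised the list in cells given DMM or succinate, each set against the same compound without LPS. After DMM, 34 of 47 genes passed at 4 h, 33 higher and 1 lower, against a background of 34.1%, and 45 passed at 48 h, all higher, against 30.8%. The medians were 1.4 and 2.32, against 0.00 and -0.03 over all genes. Irf7 rose by 5.16 ± 0.33 and 6.08 ± 0.34, Usp18 by 3.59 ± 0.32 at 4 h, and Rsad2 by 4.18 ± 0.30 at 48 h. Ifi27l2a fell at 4 h (-1.44 ± 0.39 SE, adjusted p = 0.00408). Ifi205 had no read in the 4 DMM libraries and was at least 101-fold higher after DMM and 48 h of LPS, with DMM cells set to a floor of 3 counts for all 4 together. After succinate, 19 passed at 4 h, 17 higher and 2 lower, against 18.4%, and 29 passed at 48 h, 28 higher and 1 lower, against 19.9%. The medians were 0.80 and 1.39, against -0.15 over all genes at each time. Irf7 rose by 5.34 ± 0.36 and 5.72 ± 0.36, Zbp1 by 3.02 ± 0.43 and 3.33 ± 0.41, Oas1a by 1.90 ± 0.32 at 4 h and Oas1g by 2.90 ± 0.37 at 48 h. Ifit2 fell: it had 3.86 CPM after succinate and 4 h of LPS, from 3 reads, against 27.0, 21.8, 40.3 and 23.5 CPM after succinate alone, lower by a ratio of counts of 7.56 (95% counting interval 2.53 to 37.2). At 48 h it differed by -1.64 ± 0.57 SE, adjusted p = 0.0381. Ifi27l2a fell at 4 h (-1.52 ± 0.53 SE, adjusted p = 0.041).

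Succinate before LPS lowered many of these genes relative to LPS alone, while others did not pass. At 4 h, 8 of 47 passed, all lower, where 1.03% of all genes passed in either direction and 0.499% passed as lower. The median was -1.24, against -0.03 over all genes, and 45 of 47 genes had a negative value. These 8 were Slfn4, Slfn1, Ifi205, Ifih1, Zbp1, Rsad2, Ifi204 and Ifi44. At 48 h, 7 passed, all lower, where 0.558% of all genes passed in either direction, with a median of -1.15 against 0.01. They were Slfn1, Rsad2, Ifit2, Mx1, Cxcl10, Cmpk2 and Oasl1. Each comparison sets 1 succinate library against 2 libraries of LPS alone at 4 h and 1 at 48 h. No gene of the list passed at either time with all 21 libraries as labelled, and without LPS 4 h replicate B 3 passed at 4 h.

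Because succinate and LPS were given to 1 library at each time, the mean of the 4 h and 48 h differences was also tested, a comparison added after the data were seen. Then 24 of 47 passed, all lower, where 2.10% of all genes passed and 0.998% passed as lower. The median was -1.25, against -0.03 over all genes. This count was 1 with all 21 libraries as labelled. All 6 sensors passed, as did all 3 IFIT genes, and 3 of 5 other antiviral effectors, 2 of 3 genes of the ISG15 system, 2 of 6 OAS genes, 2 of 4 Schlafen genes, 1 of 4 transcription factors, 1 of 7 GTPases, the chemokine gene Cxcl10 and 3 of the 8 remaining genes. Of the sensors, Ddx58 was at the threshold (adjusted p = 0.0496, and 0.0399 to 0.774 over the other settings). Rsad2 was at 27.0 and 54.6 CPM after succinate and LPS, against 129 and 158 CPM at 4 h and 339 CPM at 48 h after LPS alone, a mean difference of -2.52 ± 0.37 (adjusted p = 5.47e-05). Its chromosome 12 neighbour Cmpk2, a mitochondrial nucleotide kinase gene, measured 14.2 and 26.1 CPM, against 53.3 and 39.8 CPM at 4 h and 103 CPM at 48 h, a difference of -1.84 ± 0.31 (adjusted p = 3.07e-04). Slfn1 measured 18.02 and 31.8 CPM, against 109.8 and 135 and 153 CPM, a difference of -2.50 ± 0.31 (adjusted p = 3.44e-06). In each of these 3 genes, the succinate library lay below all LPS-alone libraries of its time.

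Several genes lowered by succinate were known from few reads. At 4 h, Ifit2, Ifit3, Ifi205 and Ifih1 had 3 reads and Mx1 had 1 after succinate and LPS, so ratios of counts are given. Ifih1, the RNA sensor MDA5, was lower by a ratio of 12.6 (95% counting interval 4.18 to 62.3), with 3.86 CPM against 42.7 and 54.9 CPM. Ifi205 was lower by a ratio of 16.2 (95% counting interval 5.42 to 79.8). At 48 h, Mx1 and Cxcl10 had 2 reads each, and were lower by ratios of 12.7 (95% counting interval 3.23 to 110) and 22.9 (95% counting interval 6.05 to 194). Fitted averages of these genes depend on the prior count.

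Other interferon genes did not pass between succinate then LPS and LPS alone. Irf7 had 2121 CPM after succinate and LPS, against 3046 and 2769 CPM after LPS alone at 4 h, and 2757 against 4009 CPM at 48 h. Its mean difference was -0.50 ± 0.34, with a 95% interval of -1.20 to 0.20. For Ly6e the difference was 0.20 ± 0.49 (interval -0.82 to 1.22), for Parp14, a mono-ADP-ribosyltransferase gene, -0.22 ± 0.25 (-0.73 to 0.29), for Oasl2 -0.53 ± 0.30 (-1.14 to 0.08), and for Bst2 -0.80 ± 0.32 (-1.46 to -0.14). These intervals still allow changes of the size of 1 log2 unit or near it. The core of the response element was in 11 of 19 promoters of genes that passed as lower and in 12 of 18 promoters of genes that did not pass.

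**Figure D4:**
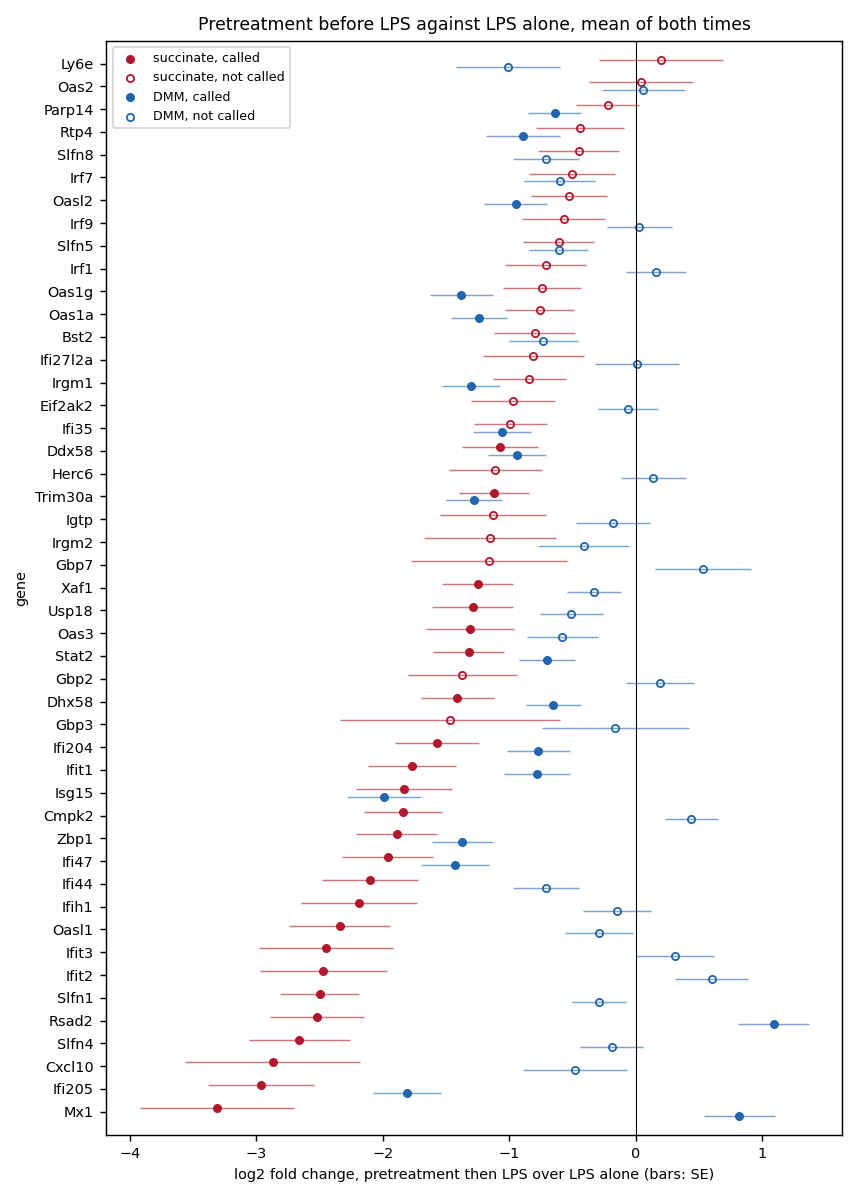
Mean over 4 h and 48 h of the log2 fold change of each gene after succinate and LPS (red) and after DMM and LPS (blue), each over LPS alone, with SE bars; filled points passed the test. Both sets share the LPS-alone libraries. Succinate values run to -3.31 for Mx1 at the bottom, and DMM values lie between -1.99 for Isg15 and 1.09 for Rsad2.

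Some markers moved with the succinate result. Neutrophil markers summed to 565 CPM after succinate and 4 h of LPS, against 42.7 and 68.9 CPM after LPS alone, and to 80.7 CPM against 7.72 CPM at 48 h. Nearly all of this was S100a8, a calcium-binding alarmin gene, at 559.9 CPM against 41.6 and 66.7 CPM at 4 h. S100a9 was at 1.29 CPM in that library, and Ly6g and Ltf were at 0 in every library. Of 6 macrophage markers tested, 1 passed over both times, lower: Fcgr1, an Fc receptor gene, measured 282 CPM, against 1063 and 1069 CPM at 4 h, and 572 against 1429 CPM at 48 h, a mean difference of -1.62 ± 0.34 (adjusted p = 0.00454). The sum of the macrophage markers was 148100 CPM at 4 h, against 101600 and 118300 CPM, of which Lyz2 made up 134745 CPM, against 88435 and 104922 CPM. Il1b measured 15392 CPM against 6529.8 and 9244 CPM. Several of these markers also responded to LPS itself. At 4 h of LPS alone over control cells, Fcgr1 differed by 3.45 ± 0.33, Itgam by 4.18 ± 0.40 and Cd68 by -2.69 ± 0.37. S100a8 had no read in control cells. Fcgr1 also followed the median of the 49 genes over the 20 libraries (Pearson r = 0.989). The part of these markers in the interferon result was not tested.

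Whether the effect of succinate differed with and without LPS was tested as an interaction, added after the data were seen. The succinate difference with LPS, averaged over both times, was set against the succinate difference without LPS. It passed for 5 of 47 genes, all negative, where 0.484% of all genes passed. They were Rsad2 (-2.88 ± 0.47 SE, adjusted p = 0.00159), Ifit2 (-2.80 ± 0.59 SE, adjusted p = 0.018), Mx1 (-4.19 ± 0.89 SE, adjusted p = 0.0199), Cmpk2 (-1.74 ± 0.39 SE, adjusted p = 0.0265) and Ifi204 (-2.01 ± 0.46 SE, adjusted p = 0.031). The lowest and highest values were -4.24 ± 1.30 for Cxcl10 and 0.49 ± 0.64 for Ly6e, and neither passed. None passed with all 21 libraries as labelled. Left out in turn, 6 libraries (LPS 4 h replicates A and B, succinate replicates 1 and 2, and control replicates 1 and 3) each brought the count to 2 or 3.

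DMM before LPS lowered 15 of 47 genes at 4 h relative to LPS alone, among them Isg15, Zbp1 and Trim30a. None was higher, where 14% of all genes passed in either direction and 10.5% passed as lower. The median was -0.73, against 0.04 over all genes. It was also -0.73 with all 21 libraries as labelled, a setting that adds no library to either group. Ifi205 had 7.87 and 4.64 CPM after DMM and LPS, against 59.7 and 65.6 CPM after LPS alone (-3.23 ± 0.40 SE, adjusted p = 4.56e-06). Isg15 had 15.7 and 12.1 CPM, against 75.7 and 94.7 CPM (-2.58 ± 0.42 SE, adjusted p = 1.25e-04), and Zbp1 72.5 and 70.6 CPM, against 246 and 258 CPM (-1.82 ± 0.32 SE, adjusted p = 2.32e-04). Trim30a, which codes for a ubiquitin ligase, had 68.6 and 64.1 CPM, against 149 and 247 CPM (-1.58 ± 0.30 SE, adjusted p = 4.10e-04). In each of these 4 genes the DMM libraries lay below those of LPS alone. The other 11 were Oas1g, Ifi35, Irgm1, Ifi204, Oas1a, Ifi47, Rtp4, Oasl2, Ddx58, Slfn4 and Ifi44, from -1.76 for Oas1g to -0.98 for Slfn4. Ifi44 was at the threshold (adjusted p = 0.049) and passed in 0 of 5 other settings (0.0507 to 0.389). Ddx58 and Slfn4 each passed in 3 of 5. The highest value was that of Mx1, with 19.1 and 24.1 CPM after DMM and LPS, against 10.7 and 11.8 CPM (0.92 ± 0.40 SE, adjusted p = 0.122). In place of 15, 4 genes passed with all 21 libraries as labelled, and 7 and 9 passed without DMM and LPS replicate A and B.

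After 48 h, no gene of the list passed between DMM then LPS and LPS alone, where 0.807% of all genes passed. Of the 47, 14 had an unadjusted p under 0.05, as had 932 of all 6812 genes. DESeq2 called 2 of the 47 and 109 of all genes. The extremes were Rsad2 (1.43 ± 0.44 SE, adjusted p = 0.125) and Ifi47, an IRG-family GTPase gene (-1.46 ± 0.40 SE, adjusted p = 0.0737). The 2 DMM libraries differed from each other here, with Irf7 at 1916 and 4302 CPM, and 1 and 7 genes passed without replicate 1 and 2. As labelled, the 21 libraries gave 0, and the median of the 47 genes was -0.38 here and 0.34 in that setting. The change of the DMM effect between the times also passed for no gene of the list, against 0% of all genes. By unadjusted p, 3 of 47 were under 0.05, as were 357 of all 6812 genes. DESeq2 called 0 of the 47 and 1 of all genes. The extremes were 2.85 ± 0.56 for Ifi205 and -0.73 ± 0.50 for Usp18. Without DMM and LPS 48 h replicate 1, 1 gene passed, and with all 21 libraries 0.

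Over the mean of both times, a comparison added after the data were seen, DMM changed 19 of 47 genes, 17 lower and 2 higher, where 17.3% of all genes passed (11.9% lower and 5.43% higher). The median was -0.58, against 0.06. Of the sensors, 5 of 6 were lower, as were 3 of 6 OAS genes and 4 of the 8 remaining genes, and none of the 4 Schlafen genes passed. The 2 higher genes were Rsad2 (1.09 ± 0.28 SE, adjusted p = 0.00678) and Mx1 (0.82 ± 0.28 SE, adjusted p = 0.0436). Rsad2 passed in 5 of 5 other settings, and Mx1 in 2 of 5 (adjusted p 0.0395 to 0.193). Among the lower genes, Dhx58 and Parp14 each passed in 1 of 5. The lower ones were led by Isg15 (-1.99 ± 0.29 SE, adjusted p = 2.82e-05), Ifi205 (-1.81 ± 0.27 SE, adjusted p = 3.22e-05), Trim30a (-1.28 ± 0.22 SE, adjusted p = 1.52e-04) and Zbp1 (-1.37 ± 0.24 SE, adjusted p = 1.71e-04). With all 21 libraries 3 passed, 2 higher and 1 lower. Beside these values, S100a8 measured 199.5 and 320.3 CPM after DMM and 4 h of LPS, against 41.6 and 66.7 CPM, and the neutrophil markers other than S100a8 were at 0 in both libraries of DMM and 4 h of LPS. Of 6 macrophage markers, 2 were lower over both times: Csf1r at 4 h had 2504 and 3271 CPM, against 7847 and 7749 CPM, and Itgam 849 and 1128 CPM, against 3966 and 4164 CPM (Itgam over both times -1.78 ± 0.32 SE, adjusted p = 2.20e-04). Fibroblast markers summed to 39.3 and 32.5 CPM after DMM and LPS, against 14.9 and 6.45 CPM at 4 h, and the rise was that of Dcn. Col1a1, Col1a2 and Col3a1 were each at 0 to 2.79 CPM in these DMM libraries, against 0 to 3.20 CPM after LPS alone. Dcn, the one tested, had 36.0 and 29.7 CPM, against 7.47 and 5.38 CPM (2.34 ± 0.51 SE, adjusted p = 0.00243), and 12.2 and 8.46 against 0 CPM at 48 h. Itgam, S100a8 and Dcn also rose with LPS alone at 4 h: Itgam by 4.18 ± 0.40 over control cells, while S100a8 and Dcn had no read in control cells. The part of these markers in the result was not tested. The interaction of DMM with LPS at 4 h, the DMM difference with LPS minus that without, passed for 2 genes, both negative, where 5.43% of all genes passed. They were Ifi204 (-1.83 ± 0.47 SE, adjusted p = 0.0161) and Trim30a (-1.32 ± 0.38 SE, adjusted p = 0.0369), and the extremes were 1.58 ± 0.62 for Ifit3 and -3.13 ± 1.17 for Cxcl10. This count was 0 without DMM and LPS replicate A, LPS 4 h replicate B, control replicate 1 or control replicate 3, 1 without DMM and LPS replicate B or DMM replicate 4, and 0 with all 21 libraries.

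As named, the 2 compounds differ by a methylene group in the carbon chain and by the methyl esters of DMM. The source names do not say in which chemical form succinate was given. Doses are not given either, so the comparison below is at the doses used and at matched times. It was made at 4 h, at 48 h, as a mean of both and without LPS, with p-values adjusted over all genes in each. At 4 h of LPS, 7 of 47 genes were higher after DMM than after succinate and none lower, where 7.57% of all genes passed in either direction and 1.07% passed as higher. Rsad2 had 232 and 251 CPM after DMM and LPS, against 27.0 CPM after succinate and LPS (3.15 ± 0.54 SE, adjusted p = 2.53e-04). Slfn1, Cmpk2, Slfn4, Mx1, Ifih1 and Gbp2 were the others. Slfn1 differed by 2.21 ± 0.44 and Slfn4 by 2.77 ± 0.60, and Mx1 by a ratio of counts of 16.3 (95% counting interval 2.82 to 655). Ly6e had the lowest value, with 471 and 547 CPM after DMM and LPS, against 1527 CPM (-1.59 ± 0.62 SE, adjusted p = 0.131). At 48 h, 11 were higher and none lower, where 3.86% of all genes passed and 0.763% passed as higher. Ifit2 had 141 and 159.7 CPM, against 9.09 CPM (4.03 ± 0.56 SE, adjusted p = 1.87e-05), and Rsad2 605 and 1222 CPM, against 54.6 CPM (4.06 ± 0.53 SE, adjusted p = 9.51e-06). With all 21 libraries, 2 passed at 4 h and 4 at 48 h.

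As the mean of both times, added after the data were seen, DMM minus succinate under LPS passed for 18 of 47 genes, all higher after DMM, where 17.3% of all genes passed and 5.2% passed as higher. The median was 0.78, against 0.09 over all genes. All 3 IFIT genes and 4 of 5 other antiviral effectors were among them, led by Rsad2 (3.61 ± 0.38 SE, adjusted p = 4.41e-08), Cmpk2 (2.29 ± 0.29 SE, adjusted p = 1.52e-06), Mx1 (4.13 ± 0.53 SE, adjusted p = 1.75e-06) and Slfn1 (2.21 ± 0.30 SE, adjusted p = 3.52e-06). For other genes the compounds were not told apart: the difference was -0.16 ± 0.38 for Isg15 (95% interval -0.94 to 0.61), -0.10 ± 0.31 for Irf7 (-0.74 to 0.54), -0.16 ± 0.26 for Trim30a (-0.69 to 0.38) and 0.07 ± 0.30 for Bst2 (-0.54 to 0.67). Ly6e had the lowest value, -1.21 ± 0.44 (-2.13 to -0.29), and did not pass. As labelled, the 21 libraries gave 6. Markers also passed in this comparison: S100a8 (-1.91 ± 0.28 SE, adjusted p = 3.24e-05), Csf1r (-1.80 ± 0.35 SE, adjusted p = 3.92e-04) and Itgam (-1.74 ± 0.35 SE, adjusted p = 5.24e-04) were lower after DMM, and Fcgr1 (1.09 ± 0.32 SE, adjusted p = 0.0161) was higher. Dcn was higher too, with no read in either library given succinate and LPS. Their part in the result was not tested.

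Between 48 h and 4 h of LPS alone, no gene of the list passed, where 0.0147% of all genes passed. By unadjusted p, 12 of 47 were under 0.05, as were 316 of all 6812 genes. DESeq2 called 0 of the 47 and 4 of all genes. LPS alone for 48 h is 1 library. The extremes were Cxcl10 at 2.42 ± 0.58 and Slfn4 at -0.70 ± 0.40, and the median was 0.49, against -0.01 over all genes. With all 21 libraries as labelled, 0 passed and the median was -0.26, and with a replicate block it was 0.06, so its direction changed when the library kept apart was added. After DMM and LPS, with 2 libraries at each time, 9 passed, all higher at 48 h, where 1.17% of all genes passed in either direction. The median was 0.87, against 0.03. The 4 h and 48 h libraries, here and for LPS alone, are separate sets by their titles. Unstimulated libraries could not be matched to either set, so hours of LPS and set cannot be told apart. Ifit2 had 141 and 159.7 CPM at 48 h, against 16.9 and 17.6 CPM at 4 h (3.12 ± 0.36 SE, adjusted p = 1.95e-06). Ifi205, Cxcl10 and Ifit3 differed by 3.47 ± 0.40, 3.06 ± 0.52 and 2.15 ± 0.38, and Rsad2, Ifi204, Isg15, Cmpk2 and Oasl1 were the others. Igtp, an IRG GTPase gene, had the lowest value (-0.08 ± 0.36 SE, adjusted p = 0.969). The count was 3, 4, 21 and 3 without DMM and LPS 4 h replicates A and B and 48 h replicates 1 and 2, and 1 with all 21 libraries.

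Without LPS, no gene of the list passed for either compound when the libraries of a group were pooled. Succinate libraries also differed by odd or even column number: replicates 2 and 4 were close (chi-square of 2.77 per degree of freedom), as were 1 and 3 (6.56), against 11 to 21.7 across these pairs. Control replicates 1 and 3 were close too (4.95), against 10.3 and 12.4 to replicate 4. DMM libraries followed this only in part: 2 and 4 were closest (4.19), but 3 was nearer to 4 (7.39) and 2 (9.48) than to 1 (11.8). Ly6e followed this split, with the even-numbered libraries of each compound above the odd-numbered ones. With odd or even number as a term, a setting added after the data were seen, 2 genes were lower after DMM than in control cells, Irgm1 (adjusted p = 0.0381) and Rtp4 (adjusted p = 0.0457), where 1.51% of all genes passed, and 0 passed for succinate against control or DMM against succinate. DMM against control gave 0 of 47, where 0.558% of all genes passed. By unadjusted p, 14 were under 0.05, as were 803 of all 6812 genes. DESeq2 called 2 of the 47, both lower, and 50 of all genes. The extremes were Cxcl10 (2.32 ± 0.96, interval 0.36 to 4.29) and Ifi205 (-2.00 ± 1.45), both at a few reads. Without DMM replicate 1, 1 gene passed, and without control replicate 4, 3 passed. Succinate against control gave 0, where 0% of all genes passed. By unadjusted p, 4 were under 0.05, as were 363 of all 6812 genes. DESeq2 called 0 of the 47 and 2 of all genes. Ifi27l2a had 490.1, 836, 588 and 843 CPM in succinate cells, against 1159, 1085 and 1457 CPM in control cells (-0.84 ± 0.32 SE, adjusted p = 0.853). It was lower after succinate within each set of numbers, and with the number as a term the difference was -0.90 ± 0.30 SE (adjusted p = 0.464). Gbp3 had the highest value (1.48 ± 1.12) at under 5 CPM. DMM against succinate gave 0, where 0.22% of all genes passed. By unadjusted p, 5 were under 0.05, as were 575 of all 6812 genes. DESeq2 called 0 of the 47 and 18 of all genes. Slfn1 (2.40 ± 0.89) and Ifi205 (-1.53 ± 1.30) were the extremes, at under 3 CPM in every one of these libraries.

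Upstream of the list, the interferon ligand genes were at or near 0. Of 10 in the table none passed the filter on low counts, and Ifnb1, the interferon beta gene, had no read in any library. Of 12 tested genes of the interferon receptors and the JAK-STAT pathway, 8 rose at 4 h of LPS and 7 at 48 h, with none lower, where 27.9% and 20.8% of all genes passed. Among them was Socs3, an inhibitor of cytokine signalling, by 7.32 ± 0.39 on the log2 scale at 4 h. Of 11 tested genes between TLR4 and interferon, 5 rose and 1 fell at each time, with Tank at 2.65 ± 0.30 and Ikbke, a kinase of IRF3, at 2.29 ± 0.28 at 4 h. Of 33 further interferon-induced genes tested, 26 rose and none fell at each time. Succinate averaged over both times changed none of the 12 receptor and JAK-STAT genes and none of the 11 TLR4 genes, where 2.10% of all genes passed, and lowered 10 of the 33 further induced genes, where 0.998% passed as lower. Those included Ccl12, a monocyte chemokine gene, at -3.00 ± 0.44, Ms4a4c at -2.36 ± 0.38 and Tap1, a peptide transporter gene, at -1.80 ± 0.33. DMM lowered 3 of the 12, 3 of the 11 and 12 of the 33, where 11.9% of all genes passed as lower, with Psmb8, an immunoproteasome gene, at -1.34 ± 0.26. The genes outside the list whose log2 CPM followed the median of the 49 most closely over 20 libraries were Fcgr1 (Pearson r = 0.989), Ms4a4c (0.971), Pyhin1 (0.968), H2-T22 (0.966) and Samhd1 (0.964). These correlations describe libraries that share the split by LPS.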

How the data were processed

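The deposited counts are whole reads per gene for 21 bulk RNA-seq libraries. The labels' protocols give direct lysis and full-length cDNA by a variant of SmartSeq2, without molecular identifiers, so intervals cover counting error only. TopHat2, Bowtie, HTSeq and edgeR are named in the submitters' processing notes; the genome build, annotation and strand setting were not stated there. Groups came from the labels. Unstimulated columns could be matched to groups only, and stimulated ones to samples by name.

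From the counts, genes with at least 9.64 CPM (10 reads in the median library) in 2 or more libraries and at least 15 reads in all were kept. TMM-scaled CPM were computed, and edgeR 4.0.16 (R 4.3.3) fitted a quasi-likelihood model of 9 groups and 20 libraries (11 residual degrees of freedom, biological coefficient of variation 0.23). Genes pass at a Benjamini-Hochberg adjusted p under 0.05 over 6812 genes. SE are from the F statistic, and intervals are at 95%. An arm with 0 reads is set to a floor of 3 counts. In simulated counts for LPS 4 h against control, 75% of 100 genes changed 4-fold and 19% of 100 changed 2-fold were recovered, with 1 false call.

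The 49 genes, the role groups and the pathway lists were chosen with earlier results of these data known. The named genes are a panel of 20 chosen by role and, for each comparison, up to 4 genes per direction with the smallest adjusted p, all where 5 or fewer passed, and the extremes. Alternatives were all 21 libraries as labelled, no filter on low counts, DESeq2 1.42.0, a replicate block, median-of-ratios size factors, and each library left out. The 4 comparisons over both times or by LPS with succinate were added later, as was a term for the odd or even column number of unstimulated libraries. Exon lengths and overlaps are from GENCODE vM21, and 18 of the 49 genes overlap an exon of another gene. Promoters are from RefSeq (GRCm38.p6).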

Additional observations from a re-analysis of the deposited data

Results flagged for a closer look

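Slfn4 stood out in 1 library of each unstimulated compound group. It measured 0.976 CPM in DMM replicate 3 and 1.389 CPM in succinate replicate 3, where the other 3 libraries of each group had no read; these are 1 or 2 reads, chance flags about 1 in 20 groups, and 40 groups were checked.

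The effect of DMM differed between cells with and without 4 h of LPS for Ifi204, by -1.83 on the log2 scale, and for Trim30a, by -1.32, by a test of the difference itself in edgeR's model. These are 2 of 47 genes, no larger a share than the 5.43% of all genes that passed. Neither passed with all 21 libraries as labelled. The effect of succinate differed between cells with LPS (mean of both times) and without for Mx1 by -4.19, Rsad2 by -2.88, Ifit2 by -2.80, Ifi204 by -2.01 and Cmpk2 by -1.74. The succinate values rest on 1 library at each time, where 0.484% of all genes passed, and none of them passed with all 21 libraries as labelled.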

How the results depend on the processing

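Of the alternatives, median-of-ratios size factors changed no count of genes by over 1.5 times. With all 21 libraries as labelled, the median of the 47 genes changed sign in 48 h comparisons with LPS alone. For DMM then LPS against LPS at 48 h it was 0.34 (from -0.38). For 48 h against 4 h of LPS alone it was -0.26 (from 0.49). With all 21 libraries as labelled, counts of the 47 genes that passed became 23 for LPS 48 h against control (from 40), 8 and 12 for succinate and LPS at 4 and 48 h against succinate (19 and 29), 4 for DMM then LPS against LPS at 4 h (15), 0 and 0 for succinate then LPS against LPS at 4 and 48 h (8 and 7), 2 and 4 for DMM against succinate under LPS (7 and 11), 1 for 48 h against 4 h of LPS after DMM (9), 0 for the DMM interaction (2), 3, 1 and 6 for DMM, succinate and their difference over both times (19, 24 and 18), and 0 for the succinate interaction (5). DESeq2 gave 2 for DMM against control and 2 for DMM then LPS against LPS at 48 h (each 0), and 3 for the succinate interaction (5). Without the filter on low counts, the counts were 2, 3, 3 and 1 for DMM against control, DMM then LPS against LPS at 48 h, LPS 48 h against 4 h and the DMM effect between times (each 0), 14 for succinate then LPS against LPS at 48 h (7), and 8 for the succinate interaction (5). With odd or even column number of the unstimulated libraries as a term, added after the data were seen, the count was 2 for DMM against control (0).

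Same-numbered libraries of DMM then LPS and LPS alone at 4 h did not deviate together (correlation 0.00 over 6812 genes, 2 pairs), so the numbers do not pair them. With a replicate block, counts were 1 for DMM then LPS against LPS at 48 h (from 0), 0 for succinate then LPS against LPS at 48 h (7), 2 for 48 h against 4 h after DMM (9), 1 for the DMM effect between times (0), 11 for succinate over both times (24) and 2 for the succinate interaction (5).

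Leaving out 1 library at a time, the counts ran from 7 to 11 for DMM then LPS against LPS at 4 h (15), 1 to 7 at 48 h (0), 3 to 21 for 48 h against 4 h after DMM (9), 0 to 3 for the DMM interaction (2), 0 to 1 for the DMM effect between times (0), 3 to 8 for succinate then LPS against LPS at 4 h (8), 2 to 5 for the succinate interaction (5) and 0 to 3 for DMM against control (0). Depth limits genes such as Mx1, Ifit2 and Cxcl10, known from 1 to 3 reads after succinate and 4 h of LPS; 1 library of succinate and LPS at each time and 1 of LPS alone at 48 h limit the rest. The causes of these changes were not tested.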
